A study of Mus musculus with 4 samples.

Results

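The cells described here were the microglia of deposited cluster 2 in mice given ATV:4D9, an antibody that activates TREM2 and carries a brain shuttle, and the question was how those cells differed between AppSAA and wild-type (WT) mice 24 hours after a single intravenous dose of 10 mg/kg. Members were all cells whose deposited cluster number at the coarser resolution (0.2) was 2 in the mice of these 2 groups, which gave 13526 of the 74758 cells of the series, 5883 from 4 AppSAA mice and 7643 from 4 WT mice. The UMIs (unique molecular identifiers, 1 per captured transcript) of these cells were summed over each mouse, so that the mouse was the replicate. The series held 20 mice in 5 groups of 4. Cells of 1 mouse of each group were tagged, combined and captured together, in 4 pools.

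WT mice were labelled hTfR KI HOM and AppSAA mice hTfR KI HOM, APP-SAA HOM, so both groups were homozygous for the humanised transferrin receptor that the shuttle binds, and only AppSAA mice also carried, at both alleles of the mouse App gene, a humanised amyloid-beta sequence with the Swedish, Arctic and Austrian mutations. The names WT and AppSAA below stand for these genotypes, on a C57BL/6J background. The control groups received an antibody with the same shuttle, deposited as ATV-DNP02 and read here as the isotype control ATV:ISO. The age given for the mice was 8 months, and the wording did not make clear to which mice it applied. The 8 mice compared were all recorded as male. The sources differed on the sort, given as live CD11b+ cells or as Cd45+/Cd11b+ cells, and on the tissue, given as cortex or as cortex with hippocampus. The knock-in alters codons within App and leaves its 3' end in place, so the 3' tags counted here do not check the genotype label. App itself had 135 ± 4.95 CPM in WT and 137 ± 4.50 CPM in AppSAA cells (mean ± SD, n = 4 mice each; CPM, the gene's UMIs per 1000000 UMIs of the mouse's cluster 2 sum).

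TREM2 is a lipid-sensing receptor of microglia that signals through the adaptor DAP12, encoded by Tyrobp, to the kinase Syk and to phospholipase C gamma 2. Near amyloid plaques microglia lower homeostatic genes such as P2ry12 and raise a set known as disease-associated microglia (DAM) genes, which includes Apoe, Cst7, Clec7a and Axl. Type I interferon is a separate signal. It acts through JAK kinases and transcription factors that bind the interferon-stimulated response element in the promoters of antiviral genes.

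Cluster 2 was found almost entirely in mice given ATV:4D9, which supplied 93.6% of its 14445 cells. All 6 microglial markers were detected in each of the 8 sums. In these mice the cells were set apart from the other clusters by more Hmox1 (haem oxygenase; mean log2 ratio 0.61), Lgals3 (galectin-3; 0.54), Cstb (a cathepsin inhibitor; 0.51) and C5ar1 (a complement receptor; 0.50), and by far less Mki67 (-4.34), Hmmr (-4.32) and Prc1 (-4.24), genes of dividing cells. These genes describe the clustering and were not tested. Because clusters were drawn from expression, cells that had moved far enough in either genotype were counted elsewhere, and a change within cells cannot be told apart from a change in which cells bore the number 2.

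The share of a mouse's cells that fell in cluster 2 was 41.8%, 31.2%, 33.9% and 34.7% in the AppSAA mice of pools 1 to 4 and 44.7%, 49.7%, 45.1% and 51.7% in the WT mice. The groups did not overlap, with means of 35.4% ± 4.54 and 47.8% ± 3.48 (SD, n = 4 each; difference -12.4 percentage points; exact two-sided permutation test, p = 0.0286, the smallest that 4 against 4 mice can give; adjusted p = 0.0667 over 7 measures; lower in 4 of 4 pools). Within cluster 2, the finer deposited clustering (resolution 0.4) put 80.4% ± 1.66 of AppSAA and 86.0% ± 0.992 of WT cells in its cluster 1 (exact permutation adjusted p = 0.0667; lower in 4 of 4 pools) and 6.90% ± 2.46 against 3.65% ± 2.06 in its cluster 8 (exact permutation adjusted p = 0.0667; higher in 4 of 4 pools). Finer cluster 4 held 6.76% ± 1.82 and 8.67% ± 1.53 (exact permutation adjusted p = 0.25). Outside cluster 2, and not tested, coarser cluster 5 held 18.9% to 28.6% of an AppSAA mouse's cells and 3.33% to 5.61% of a WT mouse's cells. Coarser cluster 1 held 9.24% to 16.4% of an AppSAA and 0.331% to 0.465% of a WT mouse's cells. In the same order coarser cluster 4 held 18.4% to 25.3% and 36.3% to 45.7%, and neither was tested. Finer cluster 5, looked at only after its values were seen, held 5.02% ± 1.55 of AppSAA and 0.946% ± 0.266 of WT cells. Cells of cluster 2 had medians of 16167 ± 1235 UMIs in AppSAA and 14806 ± 1435 UMIs in WT mice (exact permutation adjusted p = 0.28), 4025 and 3934 genes (adjusted p = 0.60, exact permutation) and 1.56% and 1.57% mitochondrial UMIs (adjusted p = 0.886, exact permutation).

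**Figure D1:**
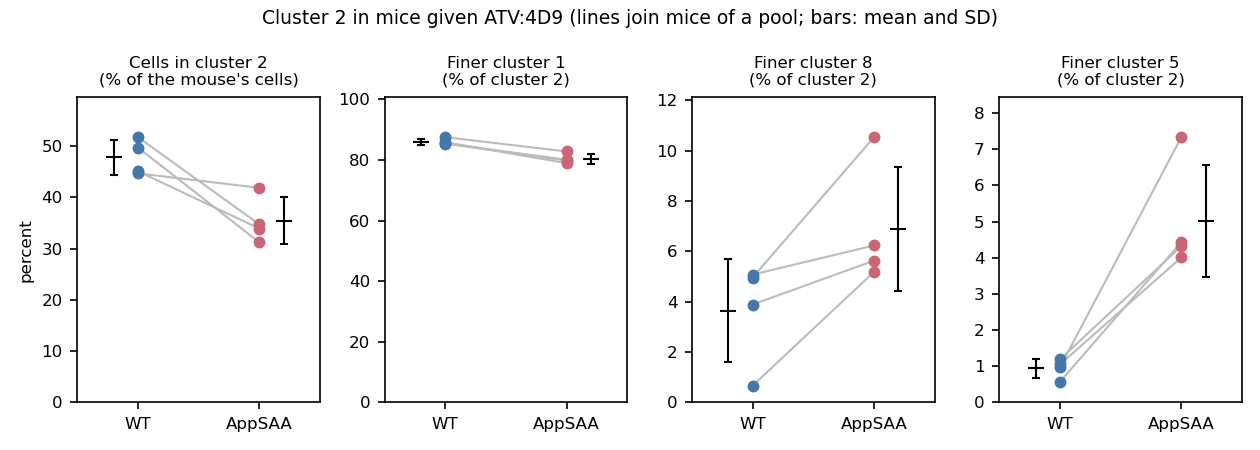
Share of each mouse's cells in cluster 2, and shares of cluster 2 in finer clusters 1, 8 and 5, in percent, for the 4 WT and 4 AppSAA mice given ATV:4D9; lines join the mice of a pool and bars give the mean and SD. The cluster 2 share was 31.2% to 41.8% in AppSAA and 44.7% to 51.7% in WT mice, and finer cluster 5 held 4.01% to 7.33% against 0.571% to 1.19% of cluster 2.

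The per-mouse sums held 14374500 to 36550100 UMIs in AppSAA and 22505500 to 39867500 UMIs in WT mice. Mice of 1 pool shared a capture, so free RNA of 1 mouse could be counted in cells of another. Xist, transcribed from an inactive X chromosome, stood at 1342 CPM in cluster 2 of the only mouse recorded as female, a WT mouse given ATV:ISO in pool 4. In the male AppSAA and WT mice given ATV:4D9 it was at 7.74 and 7.37 CPM in that pool and at 0.257 CPM or less in the others. The source of these counts in male mice was not tested. Of the cells of the series, 1089 carried a barcode that also occurred in another pool.

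Of 12696 genes tested, 1516 (11.9%) differed between AppSAA and WT cells of cluster 2 (edgeR quasi-likelihood test with the pool as a block, Benjamini-Hochberg adjusted p under 0.05, here "called"). Of these, 937 (7.38%) were higher and 579 (4.56%) lower in AppSAA, with 133 of the higher and 13 of the lower genes past a 2-fold change. The 2 groups of 4 mice did not overlap in CPM for 1050 genes (8.27%). The split between directions rested on the scaling. Fold changes were scaled by TMM, under which the median gene stood at -0.01, whereas the ratio of mean CPM had a median of -0.09 on the log2 scale. With the total UMIs alone as the scale, an alternative chosen after seeing the data, 546 genes were higher and 1784 lower. Without the pool block, 219 were higher and 17 lower. Without pool 1, 2 or 3 the calls were 926, 905 and 777, against 1814 without pool 4. Of these, 604, 609, 538 and 1139 were higher in AppSAA, in the order of pools 1 to 4. Counts of list members under these settings are to be read against these totals.

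The interferon-induced genes rose together. All 26 members of the list were called higher in AppSAA, with a median log2 fold change of 1.34 (range 0.40 to 2.29) against -0.01 for all genes tested, of which 7.38% were called higher. In 23 of the 26 the 4 AppSAA mice lay above the 4 WT mice, the exceptions being Oas1a, Cxcl10 and Gbp3. Of all genes tested, 8.27% did not overlap between groups, in either direction. All 26 were also called with total UMIs as the scale and in the cells of finer cluster 1 alone (median 1.29), and 23 without the pool block.

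Ifi27l2a, a small membrane protein induced by interferon (chr12:103442167-103443680, minus strand, GRCm38), had 438, 488, 483 and 350.4 CPM in the AppSAA mice of pools 1 to 4 and 155, 82.3, 74.2 and 81.5 CPM in the WT mice. Every AppSAA mouse was above every WT mouse, and the log2 fold change was 2.29 ± 0.14 (SE; edgeR adjusted p = 6.74e-07). Isg15, a ubiquitin-like protein attached to other proteins (chr4:156199424-156200818, minus strand), had 462, 269, 362 and 228 CPM in AppSAA and 206, 93.5, 115 and 111 CPM in WT mice. Pool 1 was the highest in both genotypes, and the rise was 1.43 ± 0.09. Irf7, the transcription factor that amplifies the response, had 118, 93.0, 100 and 68.6 CPM against 63.1, 26.3, 30.5 and 29.3 CPM (1.48 ± 0.12), again with no overlap. Oasl2 and Oas1a, of the double-stranded RNA sensing family, rose by 1.71 ± 0.10 and 1.51 ± 0.11 on the log2 scale. The RNA-binding Ifit1 and Ifit3 rose by 1.43 ± 0.09 and 1.44 ± 0.11. Zbp1, a sensor of Z-form nucleic acid, rose by 1.49 ± 0.12 and the entry inhibitor Ifitm3 by 1.52 ± 0.12. Of the signalling genes, Stat2 rose by 0.92 ± 0.08 and Irf9 by 0.41 ± 0.06. Ifi44 had the second highest fold change of the list (2.07 ± 0.20) at a low level, 3.52 ± 0.852 against 0.900 ± 0.476 CPM.

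**Figure D2:**
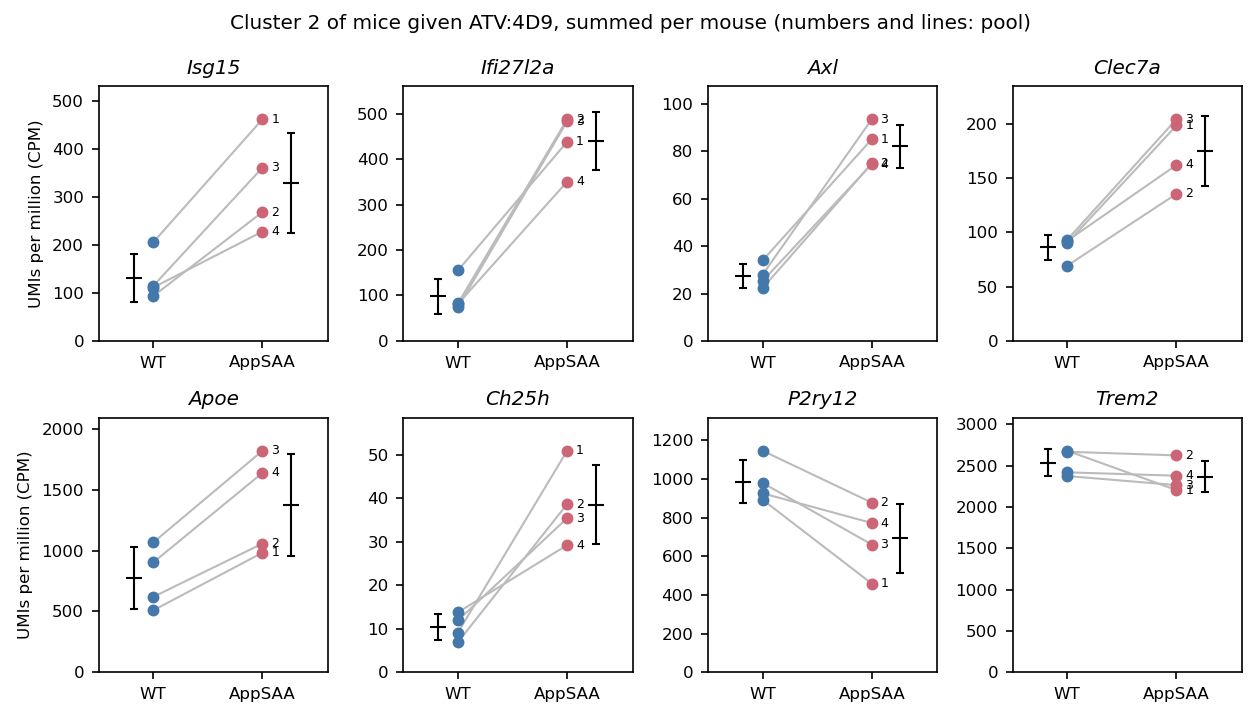
CPM in cluster 2 for 8 genes, 1 point per mouse given ATV:4D9, with lines joining the WT and AppSAA mouse of each pool and bars for the mean and SD of 4 mice. Isg15, Ifi27l2a, Axl, Clec7a and Ch25h were higher in every AppSAA mouse than in any WT mouse, Apoe was higher within each pool, P2ry12 was lower in AppSAA (459 to 877 against 892 to 1145 CPM), and Trem2 had 2204 to 2624 and 2374 to 2679.7 CPM.

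The promoters of genes that rose are shown because members of the interferon list moved together, and those printed were chosen for holding a match. In this window 9 of 19 list members with a promoter held one, and 4 of 10 of the largest rises off the list. Irf7, Ifitm3, Cxcl13 and Axl were among those with none. The windows are the 180 bases before the start site in the RefSeq annotation, written 5' to 3' in the direction of the gene. Capitals mark the core of the interferon-stimulated response element as searched for (TTTC, any 2 bases, TTTC, on either strand, with overlapping matches joined). Ifit3 (chr19:34583349-34583528, plus strand), Ifit1 (chr19:34640709-34640888, plus strand), Isg15 (chr4:156200819-156200998, minus strand) and Gbp2 (chr3:142620483-142620662, plus strand) were list members. Ifi211 (chr1:173913047-173913226, minus strand), Ifi207 (chr1:173741810-173741989, minus strand) and Cybb (chrX:9469325-9469504, minus strand) were among the 15 largest rises and not on the list. Positions are those of GRCm38.p6.
Ifit3: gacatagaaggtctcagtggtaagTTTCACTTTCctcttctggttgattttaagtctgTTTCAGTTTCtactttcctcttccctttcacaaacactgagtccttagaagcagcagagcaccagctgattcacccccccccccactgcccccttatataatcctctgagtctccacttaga
Ifit1: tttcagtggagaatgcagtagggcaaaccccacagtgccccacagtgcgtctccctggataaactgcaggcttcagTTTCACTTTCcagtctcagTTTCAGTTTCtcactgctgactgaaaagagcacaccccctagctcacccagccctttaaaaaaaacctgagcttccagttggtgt
Isg15: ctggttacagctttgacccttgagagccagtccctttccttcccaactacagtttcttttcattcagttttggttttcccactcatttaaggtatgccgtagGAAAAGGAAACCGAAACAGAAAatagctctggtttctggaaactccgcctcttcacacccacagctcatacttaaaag
Gbp2: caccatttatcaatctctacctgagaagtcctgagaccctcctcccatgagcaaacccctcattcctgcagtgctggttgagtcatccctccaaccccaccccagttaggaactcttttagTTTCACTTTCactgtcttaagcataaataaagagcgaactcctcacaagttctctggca
Ifi211: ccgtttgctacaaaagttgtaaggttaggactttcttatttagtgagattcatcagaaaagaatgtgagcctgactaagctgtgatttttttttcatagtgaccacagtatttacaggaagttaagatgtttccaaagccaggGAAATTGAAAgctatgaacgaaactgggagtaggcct
Ifi207: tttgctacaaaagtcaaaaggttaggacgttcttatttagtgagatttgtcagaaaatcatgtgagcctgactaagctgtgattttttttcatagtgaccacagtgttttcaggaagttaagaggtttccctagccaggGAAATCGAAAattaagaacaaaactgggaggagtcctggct
Cybb: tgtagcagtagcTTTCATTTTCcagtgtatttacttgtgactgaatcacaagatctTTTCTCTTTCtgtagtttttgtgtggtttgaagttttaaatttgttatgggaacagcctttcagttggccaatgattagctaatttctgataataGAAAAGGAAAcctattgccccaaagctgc

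Over the longer window of 250 bases before to 50 bases after the start, the element was found in 12 of the 19 list members with a promoter in the table (63.2%). It was found in 11.2% of the 747 matched genes called higher (9.89% of those off the list), in 3.02% of the 430 called lower and in 3.85% of the 9695 tested. Over every promoter of the table the share was 3.44%. The AP-1 motif TGANTCA was found in 9.77%, 6.74% and 5.90% of the genes called higher, called lower and tested, and in 7 of the 19 list members (36.8%). The E-box CACGTG was found in 11.9%, 13.3% and 12.02%, and in 0 list members. The core of the PU.1 motif, GAGGAA, was found in 34.9%, 36.0% and 30.5%, and in 31.6% of list members. All 4 motifs were searched on both strands. A match describes letters in a window and not binding.

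Among the 15 largest called rises with a mean of at least 10 CPM, Ifi211 and Ifi207 belong to the cytosolic DNA-sensing p200 family and Slfn5 to the Schlafen family. Ifi211 had 25.1, 13.3, 19.97 and 10.9 CPM in AppSAA and 7.54, 2.12, 5.33 and 4.16 CPM in WT mice (1.93 ± 0.14). Ifi207 rose by 1.61 ± 0.10, Slfn5 by 1.604 ± 0.10 and Gm4951 by 1.63 ± 0.13, each higher in 4 of 4 pools. Cybb, the catalytic subunit of the phagocyte NADPH oxidase, had 98.4, 68.5, 101 and 72.4 CPM in AppSAA and 36.5, 18.8, 32.6 and 37.2 CPM in WT mice (1.53 ± 0.11; edgeR adjusted p = 2.35e-06). The lowest AppSAA mouse stood above the highest WT mouse. Ass1, which makes argininosuccinate in arginine synthesis, rose from 18.5 ± 6.59 to 58.2 ± 21.6 CPM (1.73 ± 0.09).

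Transcripts of 2 chemokine genes were among the largest rises. Cxcl13, which attracts B cells (chr5:95956951-95961068, plus strand), had 64.2, 101, 37.8 and 37.8 CPM in AppSAA and 15.4, 4.21, 4.62 and 5.27 CPM in WT mice. The groups did not overlap, with a log2 fold change of 3.11 ± 0.26 (edgeR adjusted p = 6.80e-06). Cxcl11, annotated as a polymorphic pseudogene and disrupted by a frameshift in C57BL/6 mice, rose from 36.3 ± 14.4 to 96.1 ± 20.3 CPM (1.56 ± 0.16). Tpm3-rs7, a near copy of a tropomyosin gene, had the largest fitted rise (3.81 ± 0.40), with 6.18, 132, 158 and 139.6 CPM in AppSAA and 4.69 to 8.63 CPM in WT mice. The AppSAA mouse of pool 1 was within the WT range, and counting may split reads between near-identical copies, so this value is uncertain. Under ATV:ISO the AppSAA mouse of pool 1 was also low, at 7.19 CPM, against 121, 133 and 119 CPM in pools 2 to 4. WT mice given ATV:ISO had 4.45 to 47.6 CPM. The cause of the low values in pool 1 was not tested.

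Antigen presentation genes were higher in AppSAA. All 15 MHC class I genes tested, which comprise heavy chains, B2m, peptide transporters and immunoproteasome subunits, were called higher (median log2 fold change 0.66). Of all genes, 7.38% were called higher. Without the pool block 10 of the 15 were called, and 12 of the 15 did not overlap between groups, against 8.27% of all genes. H2-K1, a classical heavy chain, had 1014, 1066, 1232 and 1005 CPM in AppSAA and 767, 643, 688 and 672 CPM in WT mice (0.72 ± 0.07). B2m, the invariant light chain, rose by 0.56 ± 0.06, Nlrc5, the transactivator of the class, by 1.01 ± 0.12 and the peptide transporter Tap1 by 0.66 ± 0.06. H2-Q6 and H2-Q7 had the largest values of the list (1.92 ± 0.18 and 1.82 ± 0.15), but are close paralogs whose reads the counting may exchange.

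Of 7 MHC class II genes, 5 were called higher (71.4%, against 7.38% of all genes), and 3 without the pool block. The median was 0.78. Cd74, the invariant chain of class II, had 467, 451, 512 and 425 CPM in AppSAA and 309, 306, 255 and 233 CPM in WT mice (0.84 ± 0.06; edgeR adjusted p = 2.61e-06), with no overlap. H2-Aa rose by 0.99 ± 0.08 and H2-Eb1 by 0.89 ± 0.07, in 4 of 4 pools each, with adjusted p = 0.108 and 0.177 in edgeR without the block. The peptide-loading genes H2-DMa and H2-DMb1 had log2 fold changes of 0.09 ± 0.05 and 0.10 ± 0.04 and were not called.

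DAM genes were grouped by role. Of 15 DAM receptors and surface proteins, 7 were called higher (46.7%, against 7.38% of all genes) and 1 lower (6.67%, against 4.56%). The median was 0.28. Axl, a receptor for phosphatidylserine bound by Gas6 (chr7:25757273-25788705, minus strand), had 85.1, 74.9, 93.6 and 74.7 CPM in AppSAA and 34.0, 22.3, 28.0 and 25.3 CPM in WT mice. All 4 AppSAA mice were more than 2-fold above every WT mouse (1.67 ± 0.07; edgeR adjusted p = 3.79e-08). Clec7a, the beta-glucan receptor dectin-1, had 198, 135, 204 and 162 CPM against 90.3, 69.3, 93.2 and 92.3 CPM (1.10 ± 0.06). The integrin subunit Itgax rose by 0.64 ± 0.06 and the glycoprotein Cd52 by 0.87 ± 0.09. Cd9, Cd63 and Cd68, of endosomes and the cell surface, had 0.17 ± 0.06, 0.15 ± 0.06 and -0.07 ± 0.05 and were not called.

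Of 13 secreted DAM proteins, 10 were called higher (76.9%, against 7.38% of all genes), and 4 without the pool block. The median was 0.73. Apoe, the lipid carrier, had 982, 1057, 1818 and 1637 CPM in AppSAA and 509, 619.7, 1066 and 902 CPM in WT mice. Pools 3 and 4 were higher than pools 1 and 2 in both genotypes, so the groups overlapped, and within every pool AppSAA was above WT (0.92 ± 0.05; edgeR adjusted p = 6.74e-07). The protease inhibitor Cst7 had 455 to 476 CPM against 244 to 320.3 CPM (0.75 ± 0.06), the galectin-3 binding protein Lgals3bp rose by 0.93 ± 0.08 and the chemokine Cxcl16 by 0.73 ± 0.06. Igf1, a growth factor, rose from 3.68 ± 1.64 to 10.0 ± 5.14 CPM (1.48 ± 0.13; edgeR adjusted p = 0.0793 without the block). Osteopontin, encoded by Spp1, had 46.5, 92.4, 53.2 and 33.1 CPM against 18.2, 13.8, 30.2 and 25.1 CPM, without overlap (1.39 ± 0.26).

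Among 12 lipid-handling DAM genes, 7 were called higher (58.3%, against 7.38% of all genes), with a median of 0.34. Ch25h, which makes 25-hydroxycholesterol, had 51.0, 38.7, 35.5 and 29.3 CPM in AppSAA and 9.17, 6.98, 11.95 and 13.8 CPM in WT mice (1.95 ± 0.19; edgeR adjusted p = 2.04e-05). The lowest AppSAA mouse was over 2-fold above the highest WT mouse. The fatty acid binding protein Fabp5 rose by 1.31 ± 0.10 and the scavenger receptor Cd36 by 1.54 ± 0.14, the latter from 2.37 ± 0.302 CPM. Lipoprotein lipase, Lpl, rose by 0.47 ± 0.12. The cholesterol exporters Abca1 and Abcg1 (0.11 ± 0.04 and -0.05 ± 0.05) and the lysosomal lipase Lipa (0.04 ± 0.04) were not called.

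Of 15 lysosomal and protease genes, Ctsl, Grn and Atp6v1a were called higher, against 7.38% of all genes (median 0.09), and 0 without the pool block. Ctsl, cathepsin L, stood at 0.28 ± 0.06 (not called without pool 3) and Grn, progranulin, at 0.22 ± 0.06 (not called without pool 2 or 3). The cathepsins Ctsb and Ctsd and the membrane protein Lamp1 had 0.14 ± 0.06, 0.06 ± 0.07 and 0.06 ± 0.06 and were not called.

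**Figure D3:**
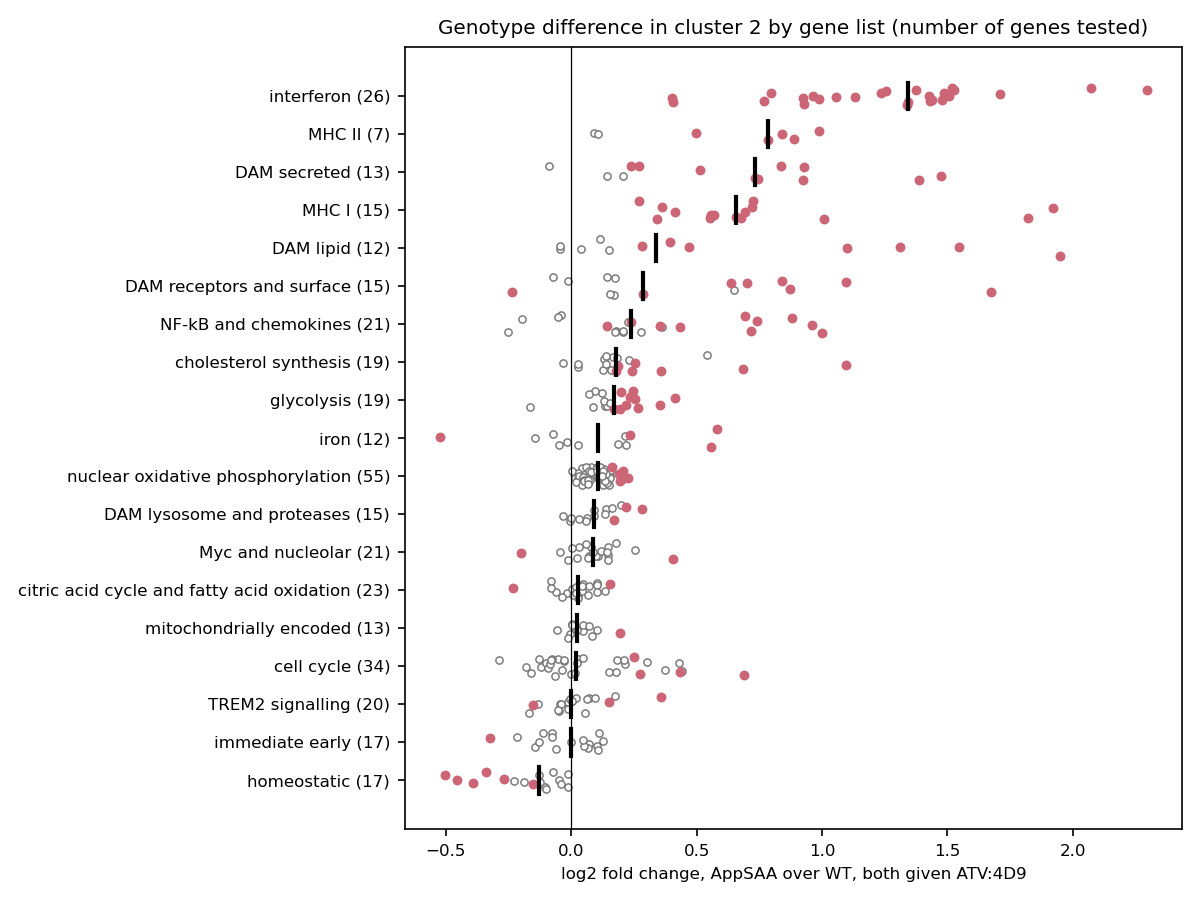
Log2 fold change, AppSAA over WT, of each tested member of 19 gene lists in cluster 2 of mice given ATV:4D9; filled points were called (adjusted p under 0.05), open points were not, and bars give the list's median. The medians run from 1.34 for interferon-induced genes (26 of 26 called) to -0.13 for homeostatic genes (6 of 17 called).

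Homeostatic genes were lower or not called. Of 17, 6 were called lower (35.3%, against 4.56% of all genes) and 0 higher (of all genes, 7.38% were), with a median of -0.13. The calls lower numbered 13 with total UMIs as the scale, under which 1784 of all genes were called lower. They numbered 3 when pool 3 was left out and 0 without the pool block, where 239 and 17 of all genes were called lower. P2ry12, the ADP receptor that guides microglial processes (chr3:59216272-59262871, minus strand), had 459, 877, 660.5 and 771 CPM in AppSAA and 892, 1145, 979 and 925 CPM in WT mice. It fell by 0.46 on the log2 scale (SE 0.08; edgeR adjusted p = 0.00336), with no overlap and the lowest value in the AppSAA mouse of pool 1. Its relative P2ry13 fell by 0.34 (SE 0.04), Gpr34, a lysophosphatidylserine receptor, by 0.27 (SE 0.05), the Fc receptor-like Fcrls by 0.39 (SE 0.09; not called without pool 3), the fructose transporter Slc2a5 by 0.50 (SE 0.09) and the transcription factor Sall1 by 0.15 (SE 0.04). Tmem119, Cx3cr1 and Csf1r had -0.11 ± 0.05, -0.07 ± 0.06 and -0.01 ± 0.05 and were not called.

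Trem2, the antibody's target, was not called. It had 2204, 2624, 2264 and 2378 CPM in AppSAA and 2679.7, 2667, 2374 and 2419 CPM in WT mice (-0.01 ± 0.06; edgeR adjusted p = 0.916). Its CPM was lower in AppSAA in 4 of 4 pools, and the ranges overlapped. Tyrobp had 0.18 ± 0.06 (edgeR adjusted p = 0.0925; higher in 3 of 4 pools) and Tfrc, the transferrin receptor gene, 0.21 ± 0.07 (edgeR adjusted p = 0.0539; higher in 2 of 4 pools). Their calls rested on the setting. Tyrobp was called with DESeq2 (adjusted p = 0.00777) and with no filter on low counts (edgeR adjusted p = 0.0187). Tfrc was called with no filter (edgeR adjusted p = 0.00550), in finer cluster 1 alone (0.0287), in cells of at most 25000 UMIs (0.0493) and without pool 4 (0.0170). Of 20 genes of TREM2 signalling, 2 were called higher (10.0%, against 7.38% of all genes) and 1 lower (of all genes, 4.56% were), with a median of -0.00038. Pik3ap1, an adaptor of phosphoinositide 3-kinase, had 101, 101, 123 and 113 CPM against 86.4, 91.2, 92.1 and 91.0 CPM (0.36 ± 0.05; edgeR adjusted p = 0.000181). The adaptor Grb2 (0.15 ± 0.04) was not called without pool 1, 2 or 3, nor the phosphatase Inpp5d (-0.15 ± 0.04) without pool 1, 2 or 3. The kinase Syk and Plcg2 had -0.17 ± 0.06 and -0.05 ± 0.04 and were not called.

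Of 21 genes of NF-kB and inflammatory chemokines, 10 were called higher (47.6%, against 7.38% of all genes) and 0 lower (median 0.24). Of all genes, 4.56% were called lower. Without the pool block 1 of the list was called. The monocyte-attracting Ccl12 had 6023, 3685, 4342 and 3495 CPM in AppSAA and 3216, 1815, 1981 and 2577 CPM in WT mice (0.96 ± 0.10; edgeR adjusted p = 4.02e-05), and Ccl2 rose by 0.69 ± 0.09. The co-stimulatory receptor Cd40 rose by 1.00 ± 0.12, prostaglandin synthase Ptgs2 by 0.88 ± 0.11, and the non-canonical subunits Nfkb2 and Relb by 0.44 ± 0.06 and 0.35 ± 0.06. The cytokines themselves were not called, Tnf at 0.21 ± 0.09, Il1b at 0.28 ± 0.13, Il1a at -0.04 ± 0.08 and Il6 at -0.20 ± 0.09.

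Of 17 immediate early genes, which stress and dissociation of tissue can induce, Egr3 was called lower (-0.32 ± 0.09), though not without pool 1, 2 or 3. This was 5.88% of the list, against 4.56% of all genes called lower. Without pool 4 there were 3 calls, where 1139 of all genes were called higher and 675 lower. Fos, Junb and Atf3 had 0.07 ± 0.10, 0.05 ± 0.08 and 0.11 ± 0.09, and the median of the list was -0.0027.

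Of 19 glycolysis genes, 10 were called higher (52.6%, against 7.38% of all genes), with a median of 0.17, and 1 without the pool block. The largest were the glucose transporter Slc2a1, with 63.2, 50.9, 54.8 and 52.0 CPM against 47.0, 40.9, 47.2 and 41.2 CPM (0.41 ± 0.05), and the hypoxia factor Hif1a (0.35 ± 0.04). Without pools 1 to 4 in turn the list gave 6, 5, 4 and 12 calls, and with total UMIs as the scale 6 higher and 1 lower. All 55 nuclear genes of oxidative phosphorylation had positive fold changes and 6 were called (10.9%, against 7.38% of all genes; median 0.11), of which Ndufa1 stood at 0.22 ± 0.04 and Cox8a at 0.21 ± 0.05 (not called without pool 1, 2 or 3). This list gave 2, 1, 1 and 25 calls without pools 1 to 4 in turn, 0 without the block and 1 under total UMIs, where its median was 0.02. For both lists the background moved as well. Of all genes, 604, 609, 538 and 1139 were called higher without pools 1 to 4, 219 without the block and 546 under total UMIs. Of the 13 mitochondrially encoded genes mt-Nd6 was called (0.20 ± 0.05; not without pool 1, 2 or 3), which is 7.69% of the list against 7.38% of all genes called higher. Of 23 genes of the citric acid cycle and fatty acid oxidation, Echs1 was higher (0.16 ± 0.04; not called without pool 1, 2 or 3) and Idh2, mitochondrial isocitrate dehydrogenase, fell by 0.23 (SE 0.04), with 72.6, 79.1, 68.9 and 75.3 CPM against 96.3, 95.2, 89.3 and 88.3 CPM. These single calls were 4.35% of the list in each direction, against 7.38% of all genes higher and 4.56% lower.

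Of 19 genes of cholesterol synthesis and uptake, 7 were called higher (36.8%, against 7.38% of all genes), with a median of 0.18. There were 3, 4, 4 and 6 calls without pools 1 to 4 in turn, 3 under total UMIs and 1 without the block. In the same order 604, 609, 538, 1139, 546 and 219 of all genes were called higher. Squalene epoxidase Sqle rose by 0.68 ± 0.14 (edgeR adjusted p = 0.0901 without the block).

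Of 12 iron genes tested, 3 were called higher (25.0%, against 7.38% of all genes) and 1 lower (8.33%, against 4.56%), and 0 without the pool block. The storage protein Fth1, ferritin heavy chain (chr19:9980598-9985098, plus strand), had 10886, 9281, 9461 and 8484 CPM in AppSAA and 7897, 6304, 6791 and 6485 CPM in WT mice, with no overlap (0.56 ± 0.07; edgeR adjusted p = 0.000280). Hmox1, which frees iron from haem, rose by 0.58 ± 0.07. Ferroportin, the iron exporter encoded by Slc40a1, fell by 0.52 (SE 0.08), with 19.6, 44.1, 32.1 and 39.1 CPM against 38.1, 58.1, 56.1 and 49.4 CPM.

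Of 34 cell cycle genes 4 were called higher (11.8%, against 7.38% of all genes; median 0.02), among them Mki67 from 7.31 ± 1.51 to 9.17 ± 1.64 CPM (0.43 ± 0.09) and Rrm2, of nucleotide synthesis, by 0.69 ± 0.19 (not called without pool 1 or 2). With total UMIs as the scale 2 were higher and 10 lower. The replication licensing gene Mcm4 had -0.12 ± 0.05 and was not called. Of 21 Myc and nucleolar genes, Odc1, the first enzyme of polyamine synthesis, was higher (0.40 ± 0.05) and Myc itself lower (-0.20 ± 0.05; not called without pool 1 or 2). These were 4.76% of the list in each direction, against 7.38% of all genes higher and 4.56% lower.

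Among called genes with a mean of at least 10 CPM and the same sign in all 4 pools, the 10 largest falls were smaller than the 15 largest rises. Slc36a1, a lysosomal amino acid transporter, fell by 0.77 (SE 0.17; edgeR adjusted p = 0.00987), with 8.96, 33.6, 13.6 and 23.5 CPM in AppSAA and 25.9, 37.1, 36.9 and 36.0 CPM in WT mice. The AppSAA values spread widely and overlapped those of WT. The midline factor Mid1 fell by 0.66 (SE 0.10), Rapgef6, an exchange factor for the Rap GTPases, by 0.57 (SE 0.09) and the interleukin-7 receptor Il7r by 0.53 (SE 0.11). Rapgef6 (chr11:54522847-54699285) and Slc36a1 (chr11:55204350-55236330) lie close together. Like Slc36a1, Rapgef6 was lowest in the AppSAA mice of pools 1 and 3, with 28.4, 58.6, 34.4 and 47.0 CPM in pools 1 to 4. The part of their position in these falls was not tested. Tspan18, a tetraspanin, had 10.2, 12.6, 10.2 and 11.8 CPM against 17.4, 21.1, 17.2 and 15.02 CPM and fell by 0.55 (SE 0.07). The others of the 10 were Slc40a1, Tmem144, the transcriptional corepressor Cbfa2t3, the adaptor Bank1 and Slc2a5, between -0.52 and -0.50. Without the pool block, Slc36a1, Mid1, Rapgef6, Il7r, Slc40a1, Cbfa2t3 and Slc2a5 were no longer called.

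Markers of other cells ranged from near 0 to the B-cell sum, and most were not called. Border macrophage markers summed to 10.9 to 21.97 CPM in AppSAA and 12.4 to 29.7 CPM in WT mice, with 0 of 7 called. T and NK cell markers summed to at most 0.209 and 0.444 CPM, astrocyte markers to at most 6.19 and 4.13 CPM and neuron markers to at most 0.904 and 0.932 CPM. None of the T and NK cell markers was abundant enough to be tested, and the 2 of 4 astrocyte and 1 of 3 neuron markers tested were not called. Neutrophil markers summed to 4.16 to 13.4 and 4.26 to 23.6 CPM, with 0 of 3 called. Of 2 monocyte markers tested, Plac8 was higher (1.02 ± 0.18, 5.88 ± 1.51 against 3.02 ± 1.07 CPM), and the 4 markers summed to 6.06 to 10.3 and 4.28 to 6.35 CPM. Oligodendrocyte markers summed to 13.9 to 38.3 and 14.6 to 25.9 CPM, with Mbp called (0.34 ± 0.09; not without pool 3 or 4). Of endothelial markers, Flt1 was higher (1.64 ± 0.19, 5.67 ± 1.65 against 1.92 ± 0.929 CPM) and Pecam1 lower (-0.40 ± 0.11; not called without pool 1 or 3), with sums of 8.81 to 14.1 and 7.86 to 11.0 CPM. B-cell markers summed to 161 to 190.1 and 198 to 204 CPM, of which Ighm made up 161, 181, 190.1 and 189 CPM in AppSAA and 198, 198, 198 and 204 CPM in WT mice. These groups did not overlap, with Ighm lower in 4 of 4 pools but not called (-0.06 ± 0.04; edgeR adjusted p = 0.408, and 0.0385 with total UMIs as the scale). The 6 microglial markers summed to 12566 to 14154 CPM in AppSAA and 15384 to 16821 CPM in WT mice. The part of these differences in the results above was not tested.

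The alternatives were computed gene by gene for the genes named by rule, and some of their calls depended on the setting. Those lost without the pool block were Cbfa2t3, Ccl12, Cox8a, Ctsl, Echs1, Egr3, Fcrls, Fth1, Grb2, Grn, H2-Aa, H2-Eb1, Hmox1, Idh2, Igf1, Il7r, Inpp5d, Mbp, Mid1, Mki67, Myc, Ndufa1, Odc1, P2ry12, Pecam1, Plac8, Rapgef6, Rrm2, Slc2a1, Slc2a5, Slc36a1, Slc40a1, Sqle and mt-Nd6 (adjusted p from 0.0742 to 0.862). With DESeq2 the calls lost were those of Echs1, Fcrls, Grb2, Inpp5d, Mbp, Myc, Pecam1, Slc36a1, Spp1 and mt-Nd6 (adjusted p from 0.0567 to 0.195). With all 5 groups in 1 fit they were those of Cox8a, Echs1, Egr3, Fcrls, Grb2, Grn, Hmox1, Inpp5d, Mki67, Myc and mt-Nd6 (adjusted p from 0.0578 to 0.209), with cells thinned to 5000 UMIs those of Echs1, Egr3, Grb2, Inpp5d and Rrm2 (adjusted p from 0.0901 to 0.299) and with cells of at most 25000 UMIs those of Echs1, Egr3, Grb2, Inpp5d, Mbp, Mki67 and Pecam1 (adjusted p from 0.0502 to 0.124). In finer cluster 1 alone the calls of Mbp, Pecam1 and mt-Nd6 (adjusted p from 0.0514 to 0.105) were lost, under total UMIs those of Cox8a, Echs1, Grb2, Grn, Mbp and mt-Nd6 (adjusted p from 0.0706 to 0.247) and under limma-voom that of Egr3 (adjusted p = 0.0622).

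For some of the genes that rose, the share of cells with at least 1 UMI was also larger, after each cell was thinned to 5000 UMIs. That left out 251 AppSAA and 226 WT cells of cluster 2 that had fewer. Isg15 was detected in 42.5% to 62.7% of cells in the 4 AppSAA mice and in 20% to 34.2% in the WT mice. In homeostatic cells (deposited clusters 0 and 3) of WT mice given ATV:ISO, thinned likewise with 1052 of 9475 cells left out, it was detected in 8.20% to 9.72%. Before thinning the means were 72.1%, 41.5% and 14%, at median depths of 15375 UMIs in cluster 2 and 7546 UMIs in the homeostatic cells. Ifi27l2a was detected in 57.9% ± 5.04 of AppSAA, 20.9% ± 5.17 of WT and 14.6% ± 2.98 of homeostatic cells (mean and SD over 4 mice). In the same order Ifitm3 was detected in 71.4% ± 6.84, 39.7% ± 8.48 and 15.9% ± 2.56. Axl was detected in 27.3% ± 2.77, 9.95% ± 2.00 and 4.19% ± 1.53, and Clec7a in 41.7% ± 6.38, 23.6% ± 3.37 and 11.4% ± 2.26. These 5 genes were thus found in more AppSAA than WT cells, and in fewest homeostatic cells. P2ry12 went the other way, with 88.1% ± 5.46, 94.3% ± 1.83 and 99.98% ± 0.0262. Apoe was found in most cells of all 3 (87.9% ± 10.1, 86.7% ± 10.9 and 91.7% ± 7.57). Cxcl13 was found in few cells, 4.94% ± 1.44 and 1.32% ± 0.421, with 0.823% ± 0.396 of homeostatic cells.

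**Figure D4:**
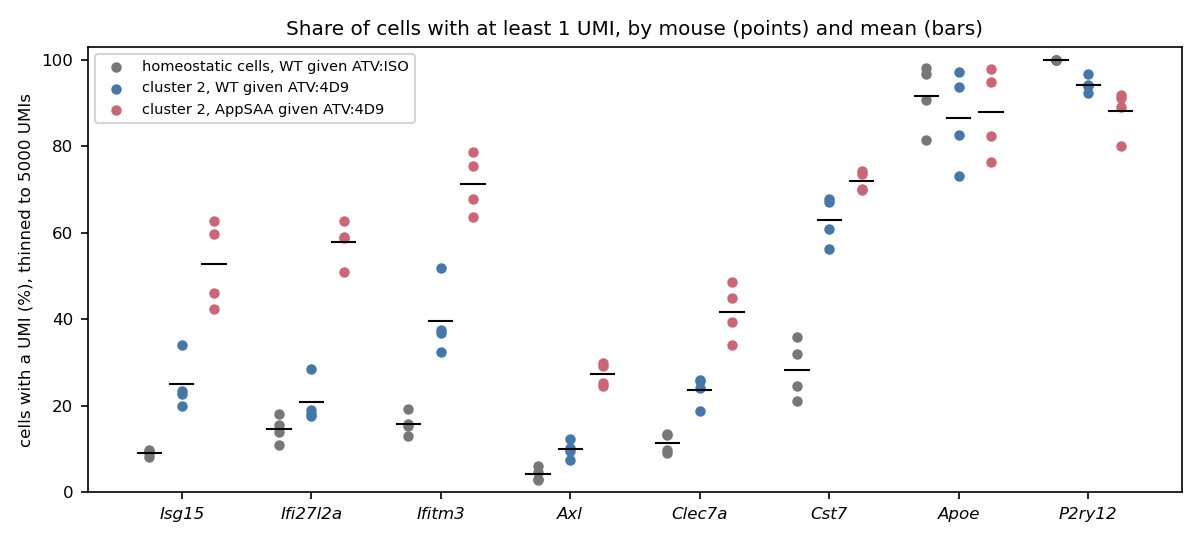
Percentage of cells with at least 1 UMI of 8 genes after thinning to 5000 UMIs, per mouse, in homeostatic cells of WT mice given ATV:ISO and in cluster 2 of WT and AppSAA mice given ATV:4D9. Isg15 was detected in 42.5% to 62.7% of AppSAA and 20% to 34.2% of WT cells of cluster 2, and Axl in 24.5% to 30.0% and 7.52% to 12.4%.

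The genotype difference was then set against that in cluster 4, another large cluster of the same mice (10108 cells). Cluster 5, which held 18.9% to 28.6% of an AppSAA mouse's cells against 18.4% to 25.3% in cluster 4, was not compared. Of 13093 genes tested, the genotype effect differed between the clusters for 49 (0.374%), smaller or more negative in cluster 2 for 47 of them. Without pools 1 to 4 in turn there were 59, 19, 23 and 30 calls. Of the interferon list, Isg15 (1.43 in cluster 2 and 1.80 in cluster 4; difference -0.37 ± 0.07), Zbp1 and Ifitm3 were called. The median of the list was 1.34 in cluster 2 and 1.58 in cluster 4. Cd69, an early activation marker, stood at 42.5, 20.6, 29.9 and 38.7 CPM in AppSAA cells of cluster 4 and at 11.7, 3.05, 11.2 and 6.16 CPM in those of cluster 2. In WT cells it stood at 3.17 to 6.48 and 2.09 to 3.47 CPM. Its difference was -1.37 ± 0.22 (edgeR adjusted p = 0.000929), and -0.86 without pool 4, where it was not called (edgeR adjusted p = 0.112). The guanylate-binding Gbp5 differed by -0.75 ± 0.10, and the mitotic genes Cdc20 (not called without pool 2, 3 or 4) and Kif22 (not called without pool 2, 3 or 4) by -0.64 ± 0.13 and -0.63 ± 0.15. Haemoglobin, Hbb-bs, gave the largest value (-6.84 ± 0.86). It came from 1185 CPM in cluster 4 of the AppSAA mouse of pool 3, where cluster 2 had 12.9 CPM, against at most 0.844 CPM in the other mice. The DNA repair gene Ung (0.28 ± 0.06; not called without pool 1, 2 or 3) and the adaptor Tifa (0.21 ± 0.05; not called without pool 2, 3 or 4) were the only positive calls. In thinned cells the differences no longer called were those of Cd69, Cdc20, Gbp5, Kif22, Tifa and Ung (adjusted p from 0.0922 to 0.914), and under limma-voom those of Cdc20, Hbb-bs, Kif22, Tifa and Ung (adjusted p from 0.0692 to 0.134).

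Homeostatic cells of the same mice (2306 cells) gave another comparison. They were few. Cluster 0 held 0.926% to 5.09% of an AppSAA and 2.02% to 4.40% of a WT mouse's cells, and cluster 3 held 1.72% to 5.84% and 3.50% to 5.72%. Their sums are thus far smaller than those of cluster 2, while the fit shared 1 spread per gene over all sets of cells. The genotype effect differed between cluster 2 and these cells for 54 genes (0.412%), larger in cluster 2 for 39 and smaller for 15. Leaving out pools 1 to 4 in turn gave 20, 22, 26 and 35 calls, of which 15, 14, 24 and 24 were among the 54. The split turned without pool 2, with 7 larger in cluster 2 and 15 smaller. Cxcl10 had 2114, 1055, 1406 and 1413 CPM in AppSAA and 810.1, 723, 1077 and 974 CPM in WT cells of cluster 2. In homeostatic cells it had 304, 90.8, 123 and 276 against 148, 129, 339.6 and 246 CPM, so that these groups overlapped, and the difference between effects was 0.78 ± 0.16 (edgeR adjusted p = 0.0157; not called without pool 3, nor in thinned cells, where it was 0.43). The guanylate-binding Gbp2 differed by 1.18 ± 0.26 (not called without pool 1, 2 or 4), the ketone body receptor Hcar2 by 1.03 ± 0.14, Ccl2 by 0.72 ± 0.14 (not called without pool 1 or 3) and the class I gene H2-T22 by 0.54 ± 0.13 (not called without pool 1, 2 or 3). In the other direction, the cytokine Il1b had 892, 334, 428 and 471 CPM in AppSAA and 234, 209, 453 and 215 CPM in WT homeostatic cells, against 154 to 306 and 181 to 297 CPM in cluster 2. The difference was -0.69 ± 0.12 (edgeR adjusted p = 0.00222). The Axl ligand Gas6 had an effect of -0.37 in cluster 2 and 0.01 in homeostatic cells, a difference of -0.36 ± 0.07 (not called without pool 1 or 2). In thinned cells the differences of Cxcl10, Gas6, Gbp2 and H2-T22 (adjusted p from 0.0540 to 0.284) were not called, nor under limma-voom those of Ccl2, Cxcl10, Gbp2 and H2-T22 (adjusted p from 0.0737 to 0.0931). The interferon list had a median of 0.98 over its members tested in homeostatic cells, and 3 of its 26 members differed, Gbp2, Cxcl10 and Bst2.

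**Figure D5:**
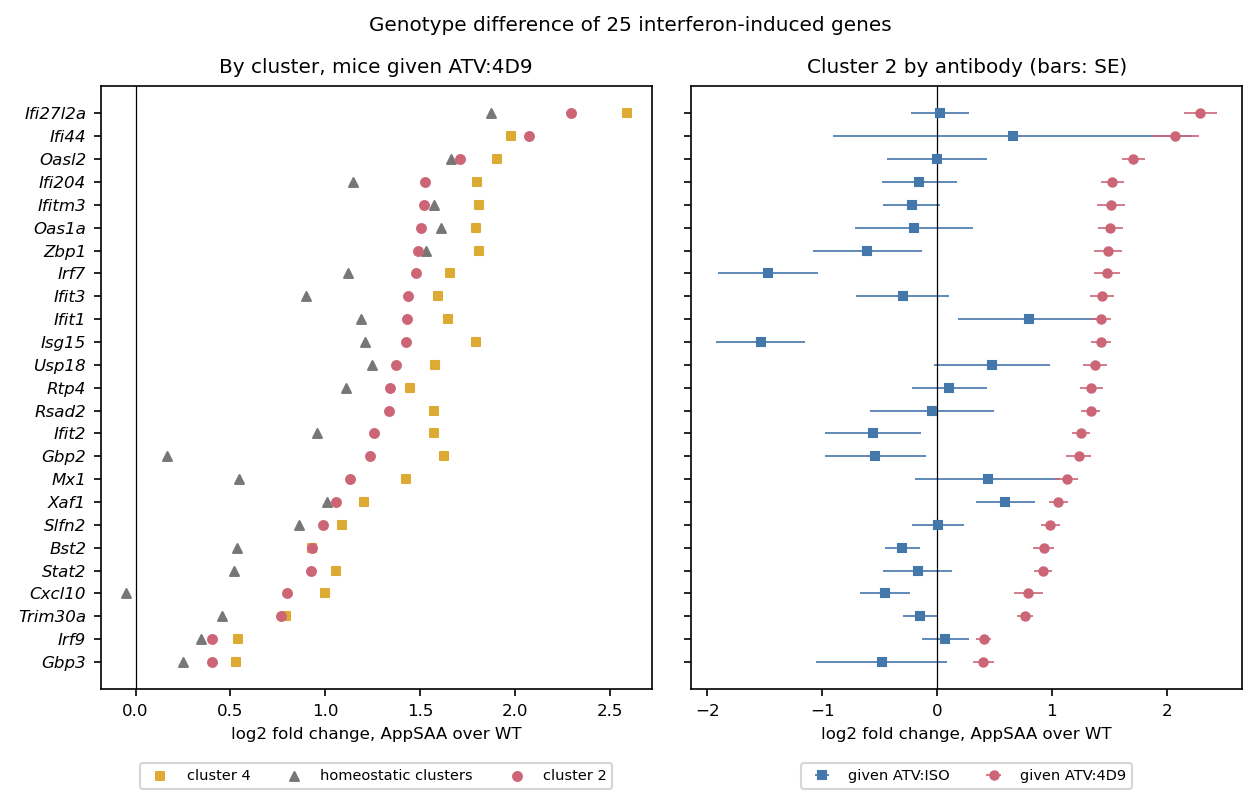
Log2 fold change, AppSAA over WT, of 25 of the 26 interferon-induced genes: left, in cluster 2, cluster 4 and homeostatic cells of mice given ATV:4D9 (no symbol where a gene was not tested); right, in cluster 2 of mice given ATV:ISO or ATV:4D9, with bars for the SE. Of the 26, those tested per set of cells had medians of 1.34 in cluster 2, 1.58 in cluster 4 and 0.98 in homeostatic cells. The median was -0.15 in cluster 2 under ATV:ISO.

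Few cells of mice given ATV:ISO bore the number 2, 75 to 172 per AppSAA mouse and 23 to 42 per WT mouse, with sums of 1112380 to 2606070 and 315315 to 631856 UMIs. Their makeup differed as well. Finer cluster 3 held 9.20%, 13.3%, 17.4% and 23.01% of them in the AppSAA mice of pools 1 to 4 and at most 12.1% in a WT mouse, against at most 0.733% and 0.397% under ATV:4D9. Finer cluster 0 held 3.49% to 11.5% in AppSAA and 9.09% to 21.7% in WT mice, against at most 0.421% and 0.476% under ATV:4D9. Finer cluster 1 held 55.8% to 68.0% in AppSAA and 65.2% to 88.1% in WT mice given ATV:ISO. The part of this in the values below was not tested. The genotype difference in these sums was called for 74 of 11572 genes (0.639%), 60 of them higher in AppSAA. It came from a fit that also held the AppSAA and WT mice given ATV:4D9. Pool terms and the spread of each gene were shared with those far deeper sums, so the SE and p-values do not rest on the ATV:ISO mice alone. Of the interferon list 0 of 26 were called with edgeR, with a median of -0.15 and 10 positive values. Over all genes 1399 had an unadjusted p under 0.05. Secreted DAM genes gave 5 calls of 13 (median 0.49). Igf1 had 44.0, 47.7, 82.5 and 58.0 CPM against 20.03, 2.38, 6.34 and 1.58 CPM (3.07 ± 0.46), and Cst7 and Ccl6 were higher by 1.67 ± 0.23 and 1.24 ± 0.15. The count over all genes was 81, 96, 31 and 2 without pools 1 to 4 in turn and 6 without the mouse recorded as female, an alternative chosen after seeing the data. Xist, called here at -6.75 ± 0.36, came from that mouse.

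Whether the genotype effect itself differed between the antibodies was tested as an interaction, which gave 33 calls of 11572 genes (0.285%), 23 positive. Of the interferon list 6 were called, all larger under ATV:4D9, and all 26 values were positive (median 1.34). Isg15 had 62.0, 94.6, 44.5 and 41.8 CPM in AppSAA and 109, 61.8, 409 and 169 CPM in WT mice given ATV:ISO. These groups overlapped, with a difference between effects of 2.95 ± 0.44 (edgeR adjusted p = 0.00304; not called without pool 3 or 4). Irf7 in these mice had 16.2, 21.7, 25.7 and 10.5 CPM in AppSAA and 40.1, 116, 41.2 and 34.8 CPM in WT cells, the reverse of the order under ATV:4D9, and differed by 2.94 ± 0.48 (not called without pool 4). Ifi27l2a differed by 2.24 ± 0.31, Cybb by 1.84 ± 0.37 (not called without pool 3 or 4), Ifitm3 by 1.69 ± 0.31, Bst2 by 1.21 ± 0.20 and Trim30a by 0.91 ± 0.17. The interferon calls numbered 8, 10, 2 and 1 without pools 1 to 4 in turn, 4 without the female mouse and 3 without the block.

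In the other direction, Ccl6, a chemokine of the DAM set, had 693, 879.7, 739 and 732 CPM in AppSAA and 474, 335, 396 and 204 CPM in WT mice given ATV:ISO, against 164 to 169 and 143 to 169 CPM in mice given ATV:4D9. The groups were apart under ATV:ISO and overlapped under ATV:4D9, with a difference between effects of -1.10 ± 0.19 (edgeR adjusted p = 0.00679; not called without pool 3 or 4). Pcp4, a calmodulin regulator, differed by -2.66 ± 0.39 (not called without pool 4), the transcript Gm20186 by -2.49 ± 0.49 (not called without pool 1 or 3), the leucine zipper gene Tsc22d1 by -1.71 ± 0.30 and the protease Adamts1 by -1.32 ± 0.25 (neither called without pool 3 or 4). Cst7 had 720.2 to 1044 against 163 to 612 CPM under ATV:ISO, and the difference between its effects was -0.93 ± 0.30 (edgeR adjusted p = 0.259). Over all genes the interaction gave 54, 38, 4 and 4 calls without pools 1 to 4 in turn. Without the pool block the differences no longer called were those of Adamts1, Ccl6, Cybb, Gm20186, Tsc22d1 and Xist (adjusted p from 0.0592 to 0.401), and without the female mouse those of Adamts1, Cybb, Gm20186, Tsc22d1 and Xist (adjusted p from 0.0564 to 0.903).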

How the data were processed

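Sorted brain cells of 20 mice in 5 groups of 4 were multiplexed, 1 mouse of each group per pool, and captured in 4 pools with the 10x Genomics 3' kit. The authors aligned the reads to mm10 with Cell Ranger 6.1.1, as given in the submitters' processing notes, and deposited whole UMI counts per gene and cell with cluster numbers and the percent of mitochondrial UMIs per cell. The counts were used as deposited. Cells of cluster 2 were summed per mouse, and homeostatic cells were those of clusters 0 and 3. Mice were grouped by the deposited genotype and treatment labels.

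Genes passing filterByExpr were tested with edgeR 4.0.16 (R 4.3.3; TMM scaling, quasi-likelihood F test, pool as a block, Benjamini-Hochberg adjustment). The standard error was the fold change divided by the square root of F. The labels give each pool 1 mouse of each group, and deviations of same-pool mice correlated in every pool (0.587, 0.412, 0.343 and 0.436). The pool was therefore taken to pair them. The WT mouse's highest correlation with an AppSAA mouse of another pool was 0.0204, -0.0553, 0.310 and 0.202. In pool 3 this was close to the same-pool value. Differences between clusters or antibodies were interaction terms. The genotype effect under ATV:ISO and the difference between antibodies came from 1 fit of the AppSAA and WT mice given either antibody, with a shared spread. Measures per mouse were compared by exact two-sided permutation tests (scipy 1.17.1). Code was tested on simulated data. DESeq2 1.42.0, limma 3.58.1 (voom), other scalings and filters, thinned or shallower cells and leaving out each pool were alternatives, and 3 were added after seeing the data (total UMIs as the scale, and 2 fits without the female mouse). No doublet caller was run. Of the cells described, 2077 (15.4%) held over 25000 UMIs and were left out as an alternative. P-values of the main gene tests measure the spread left after pool differences, or mouse differences where clusters are compared, are taken out. Those of the measures per mouse rest on the spread between these mice, without pairing. Intervals of shares over cells are not given because cells are not replicates.

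The named genes were the 15 largest rises and 10 largest falls among called genes with a mean of at least 10 CPM and the same sign in all 4 pools, Trem2, Tfrc, Tyrobp and App, up to 2 called genes each way per list (the most abundant where none was called) and the 5 largest each way of each difference. List members given beyond this were chosen after their values were seen. The members and the gene lists were chosen with earlier results of these data known. Gene positions are from the mouse GENCODE release M21 (GRCm38). Some genes were tested and counted but are not reported here.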

Additional observations from a re-analysis of the deposited data

Results flagged for a closer look

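In 14 of the 152 groups of 4 mice checked, 1 mouse stood apart from the other 3 by more of the group's range than Dixon's 95% critical value allows, and chance sets apart about 1 in 20 groups. The AppSAA mouse with the lowest value stood apart for Tpm3-rs7 (6.18 CPM, pool 1) and Ifi207 (33.2 CPM, pool 4). The WT mouse with the highest value stood apart for Cxcl13 (15.4 CPM, pool 1), Ifi27l2a (155 CPM, pool 1), Gm4951 (7.57 CPM, pool 1) and Ighm (204 CPM, pool 4). The AppSAA mouse with the highest value stood apart for H2-Q6 (48.6 CPM, pool 3), H2-Q7 (102.96 CPM, pool 3) and Ndufa1 (183 CPM, pool 2). The WT mouse with the lowest value stood apart for Slc36a1 (25.9 CPM, pool 1), Tmem144 (19.7 CPM, pool 1), Cbfa2t3 (19.2 CPM, pool 1), Clec7a (69.3 CPM, pool 2) and Snap25 (0.222 CPM, pool 3).

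The genotype effect differed between cluster 2 and another set of cells by a test of the difference itself (edgeR interaction term, log2 scale) for the following genes. Against cluster 4 it was larger in cluster 2 for Ung (0.28) and Tifa (0.21) and smaller for Hbb-bs (-6.84), Cd69 (-1.37), Gbp5 (-0.75), Cdc20 (-0.64) and Kif22 (-0.63). Against homeostatic cells it was larger for Gbp2 (1.18), Hcar2 (1.03), Cxcl10 (0.78), Ccl2 (0.72) and H2-T22 (0.54) and smaller for Cbfa2t3 (-0.56), Il1b (-0.69), Rab43 (-0.43), Gas6 (-0.36) and Gas5 (-0.34). Of the differences not described above, that of Cbfa2t3 was not called without pool 1, 2 or 3, in thinned cells (0.384) or with limma-voom (0.0822), and that of Rab43 was not called without any 1 of the 4 pools (edgeR adjusted p from 0.120 to 0.244), with RLE size factors (0.0523), with thinned cells (0.468) or with limma-voom (0.0911). Between the antibodies it was larger under ATV:4D9 for Ifi27l2a (2.24), Cybb (1.84), Xist (6.77), Isg15 (2.95) and Irf7 (2.94) and smaller for Pcp4 (-2.66), Gm20186 (-2.49), Tsc22d1 (-1.71), Adamts1 (-1.32) and Ccl6 (-1.10). The value of Xist came from the only mouse recorded as female, and that of Hbb-bs from 1 AppSAA mouse of pool 3.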

How the results depend on the processing

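For the genotype effect in cluster 2 under ATV:4D9 (1516 calls), DESeq2 gave 928 calls, all 5 groups in 1 fit 710, cells thinned to 5000 UMIs 807 and total UMIs as the scale 2330, of which 1125 were shared with the 1516. Leaving out each pool gave 777 to 1814. Without the replicate block there were 236 calls, and of 71 named genes 35 kept their side of the threshold, 35 lost the call and 1 changed sign. The difference from cluster 4 (49 calls) gave 17 with thinned cells, 15 with voom and 19 to 59 without each pool. The difference from homeostatic cells (54 calls) gave 29 with voom and 20 to 35 without each pool. Under ATV:ISO (74 calls) there were 373 with voom, 17 without the replicate block, 6 without the female mouse and 2 to 96 without each pool. The difference between antibodies (33 calls) gave 148 with voom, 7 without the replicate block, 13 without the female mouse and 4 to 54 without each pool. The cause of these shifts was not tested. The difference in median mitochondrial percentage ran from -0.0520 to 0.0228 percentage points without each pool. Signs changed for Trem2 (-0.0451 to 0.0325 without each pool), Aldoc (-0.0357 to 0.242 without each pool, -0.188 with thinned cells, -0.00801 with total UMIs), Snap25 (-0.373 to 0.424 without each pool, 0.0286 without the replicate block) and Xist between antibodies (-4.68 without the female mouse), none of which but Xist was called. The replicate block changed no call of the measures per mouse, none of which 4 pools alone can bring under the threshold. Sums of 23 to 172 cells limit every value under ATV:ISO.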

Other observations

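Under ATV:ISO, where the cells numbered 2 were few, 4 of the 15 lysosomal and protease genes tested were called higher in AppSAA (0.639% of all genes were called in either direction), the proteases Ctsd (0.36 ± 0.08) and Ctsl (0.44 ± 0.09) and the glycosidases Hexa (0.41 ± 0.09) and Gusb (0.46 ± 0.09). Under ATV:4D9 the same genes had 0.06 ± 0.07, 0.28 ± 0.06, -0.03 ± 0.05 and -0.002 ± 0.04, and none of the 4 differences between the antibodies was called (edgeR adjusted p from 0.109 to 0.764). Over all genes 2 calls under ATV:ISO were left without pool 4.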
